A study of Homo sapiens with 8 samples.

Results

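The ATF4 amino acid stress response was followed as 39 genes among 18417 genes tested in ZR-75-1, an estrogen receptor-positive human breast cancer cell line of luminal type. The 39 genes comprised 9 transcription factors and regulators, 5 stress effectors, 4 amino acid transporters, 9 enzymes of amino acid and one-carbon metabolism, and 12 genes of tRNA charging and export. Each was read from 1 transcript cluster (the probes that cover a gene), the one with the highest mean over the 8 arrays, and all 39 were measured. The genes were listed with earlier results of these arrays in view, for their levels in the 4 lines, so their differences and calls are given here as a description of the lines.

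The 4 lines were shEI24 clone 1 and shEI24 clone 2 (independent clones stably expressing short hairpin RNA against EI24, a membrane protein of the endoplasmic reticulum), a control line expressing hairpin RNA against GFP (shGFP), and the parental ZR-75-1 cells, which carried no hairpin. All were grown in RPMI medium with serum and antibiotics and received no chemical, and each line was hybridised on 2 arrays. shGFP and parental cells were both controls, and the clones were set against each separately. No source states separate cultures for the arrays within a line. The standard errors and p-values therefore cover only the spread between these arrays, which may be technical.

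ATF4 is a transcription factor whose mRNA is translated preferentially when the initiation factor eIF2 is phosphorylated, as happens when amino acids run short, when proteins misfold in the endoplasmic reticulum or when heme is lacking. With partners of the C/EBP family it binds the C/EBP-ATF response element and raises genes that import amino acids, make serine, glycine and asparagine, and charge tRNAs. It also raises its own partners and inhibitors, among them DDIT3 (CHOP), ATF3 and TRIB3. Because ATF4 is controlled largely at translation, its mRNA can differ little between cells whose target mRNAs differ widely.

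The sequences below show where the core of that element stood in the promoters of members described in the results. The core searched was TGATGNAA, on both strands, in RefSeq windows of 300 bases, 250 before and 50 after each transcription start (GRCh38.p14). Each stretch has 30 bases in the direction of transcription, with the core in capitals, and TTNCATCA is the same core on the other strand. ASNS makes asparagine, CHAC1 degrades glutathione, CEBPG, JDP2 and ATF3 are leucine zipper proteins that can pair with ATF4 or its partners, and AARS1, IARS1 and MARS1 charge tRNAs with alanine, isoleucine and methionine.
ASNS, chr7:97872458-97872487, minus strand: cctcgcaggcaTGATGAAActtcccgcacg
CHAC1, chr15:40953251-40953280, plus strand: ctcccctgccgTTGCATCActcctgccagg
CEBPG, chr19:33374060-33374089, plus strand: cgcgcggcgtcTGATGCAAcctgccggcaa
JDP2, chr14:75427995-75428024, plus strand: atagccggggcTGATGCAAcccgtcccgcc
ATF3, chr1:212565205-212565234, plus strand: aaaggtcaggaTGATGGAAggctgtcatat
AARS1, chr16:70289675-70289704, minus strand: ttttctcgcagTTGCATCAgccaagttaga
IARS1, chr9:92293692-92293721, minus strand: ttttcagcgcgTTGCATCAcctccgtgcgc
MARS1, chr12:57488053-57488082, plus strand: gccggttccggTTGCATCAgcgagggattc

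Positions count from the start of the window that held the core, with the base before it as -1. The first base of the core lay at -68 in ASNS, -209 in CHAC1, -42 in CEBPG, -16 in JDP2, -191 in ATF3, -187 in AARS1, -13 in IARS1 and -4 in MARS1. In ASNS, CEBPG and JDP2 that start lay downstream of the outermost annotated start of the gene. The core was found in 14 of the 33 members with a promoter entry (42.4%), against 3.59% of 14239 genes tested that had one. Counted by window, since several genes have more than 1 start, it stood in 14 of 54 member windows (25.9%) and in 2.67% of the windows of all genes tested. The form TGATGCAA, which TGATGNAA includes, was found in 10 of the 33 members (30.3%) and in 0.969% of genes tested. By role, TGATGNAA stood in 7 of 11 genes of tRNA charging and export with an entry and in 2 of 3 amino acid transporters. It stood in 3 of 8 transcription factors and regulators, 1 of 5 stress effectors and 1 of 6 enzymes. Outside the members, it stood in 3 of 14 further ATF4 targets, 3 of 17 other amino acid transporters and none of 9 other genes of cytosolic tRNA charging. A match is a run of letters and not a measured binding site. NUPR1, LARS1, ALDH1L2, SHMT2, SLC7A11 and PSPH had no entry in the table used.

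EI24 itself was read first. It measured 8.64 and 8.43 on the log2 scale in shEI24 clone 1 and 9.25 and 9.19 in shEI24 clone 2, against 11.97 and 11.91 in shGFP cells and 12.08 and 12.09 in parental cells. The clone arrays all lay below the control arrays, 8.35-fold lower than shGFP (log2 difference -3.06 ± 0.08, standard error, limma adjusted p = 8.6e-09) and 9.24-fold lower than parental cells (-3.21 ± 0.08, limma adjusted p = 7.3e-09). Across the series, array medians lay between 7.28 and 7.39. All 9 luminal epithelial markers fell in the clones against each control, with summed log2 levels of 76.8 to 77.3 in clone 1 and 80.2 to 80.5 in clone 2, against 109.7 to 109.9 in shGFP and 110.2 to 110.6 in parental cells. Of 9 mesenchymal markers 7 rose, with sums of 91.8 to 92.0 in clone 1 and 90.6 to 90.8 in clone 2, against 59.6 to 59.8 in shGFP and 60.3 to 61.6 in parental cells. Of 5 leukocyte markers measured, 3 rose against shGFP and 2 against parental cells (CD68 and CD14 against both), where 26.8% and 25.1% of all genes did. CD68 averaged 11.94 in clone 1 and 11.84 in clone 2, against 7.94 in shGFP and 8.08 in parental cells. CD14 averaged 7.79 and 7.44 in the clones, against 6.73 and 6.72 in the controls. PTPRC, the defining leukocyte marker, measured 4.39 and 4.37 in clone 1 and 4.40 and 4.54 in clone 2, against 4.22 and 4.20 in shGFP cells and 4.26 and 4.33 in parental cells, higher than shGFP by 0.21 ± 0.08 (limma adjusted p = 0.043) and with a difference of 0.13 ± 0.08 from parental cells (limma adjusted p = 0.19). PTPRC was dim in every line, where only 1.73% to 2.49% of genes measured lower, and CD3E and CSF1R overlapped with the controls. The luminal and mesenchymal lists moved with the clones. The part of the marker lists in the differences of the ATF4 response genes was not tested.

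Most members were lower in the clones than in shGFP cells. Against parental cells the split was more even, and 8 members changed direction. Against shGFP, 32 of the 39 members were lower in the clones, 3 were higher and 4 did not pass the threshold, which was an adjusted p under 0.05 in limma over all genes. The background was wide, since 26.8% of all genes passed it as higher and 29% as lower in that comparison (55.9% in all). Against parental cells, 21 members were lower, 15 were higher and 3 did not pass, where 25.1% of all genes were higher and 30.8% lower (55.9% in all). After a second quantile normalization that split was 18 lower and 16 higher, where 55.7% of all genes passed. The median log2 difference of the members was -0.80 against shGFP (0.08 over all genes) and -0.36 against parental cells (0.05 over all genes). Both comparisons use the same clone arrays.

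**Figure D1:**
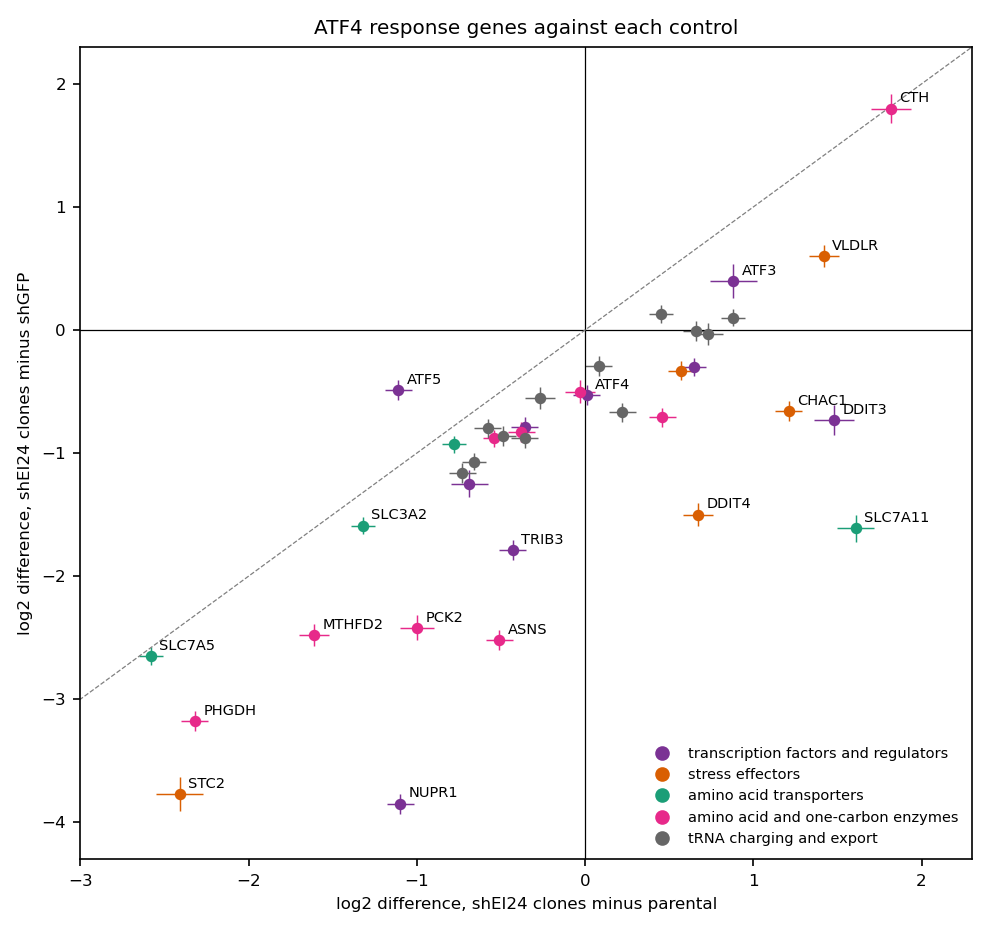
Log2 difference of the mean of both shEI24 clones from parental cells (horizontal axis) and from shGFP cells (vertical axis) for the 39 ATF4 response genes, coloured by role, with standard errors from limma as bars; the dashed line marks equal differences. Most members lie below the dashed line, and 8 that passed the threshold in both comparisons lie in the lower right corner, below shGFP and above parental cells.

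Taken against both controls, 21 members were lower in each comparison, where 25.8% of all genes were, and 3 were higher in each (ATF3, VLDLR and CTH), where 20.8% were. A further 8 passed in opposite directions, where 0.527% of all genes did. These were DDIT3, CEBPB, SESN2, DDIT4, CHAC1, SLC7A11, PSAT1 and SARS1, and for the mean of both clones all of them lay below shGFP and above parental cells. CEBPB and SESN2 did not pass against shGFP without shGFP replicate 1 (limma adjusted p = 0.071 and 0.074), and SARS1 was near the threshold against parental cells. By the methods' t-test with Benjamini-Hochberg adjustment, which counts the spread between the clones as error, CEBPB, SLC7A11 and PSAT1 passed against both controls, DDIT3 passed against parental cells alone, DDIT4 against shGFP alone, and SESN2, CHAC1 and SARS1 against neither. On the arrays, 20 members had every clone array below every control array (26.9% of all genes did) and 3 had every clone array above (VLDLR, CTH and WARS1, where 23.8% of all genes did).

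The controls themselves differed in this response. In shGFP cells 31 of the 39 members were higher than in parental cells, 1 was lower (ATF5) and 7 did not pass, where 3.21% of all genes were higher and 7.44% lower (10.7% in all). Of the 57 genes that were at least 2-fold higher in shGFP cells (0.309% of all genes), 10 were members, namely SLC7A11, NUPR1, DDIT3, DDIT4, ASNS, CHAC1, PCK2, TRIB3, STC2 and PSAT1. SLC7A11 ranked 2, NUPR1 3, DDIT3 5, DDIT4 6, ASNS 7 and CHAC1 9 among 18417 genes ordered from the highest difference. The median member was 0.56 log2 units higher in shGFP cells, against -0.03 for all genes. This count rested on few arrays. With any 1 array of either control left out, fewer members passed as higher, and fewer of all genes did too. The lone array was taken to vary like the other lines in those fits, and the median member stood between 0.52 and 0.66.

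**Figure D2:**
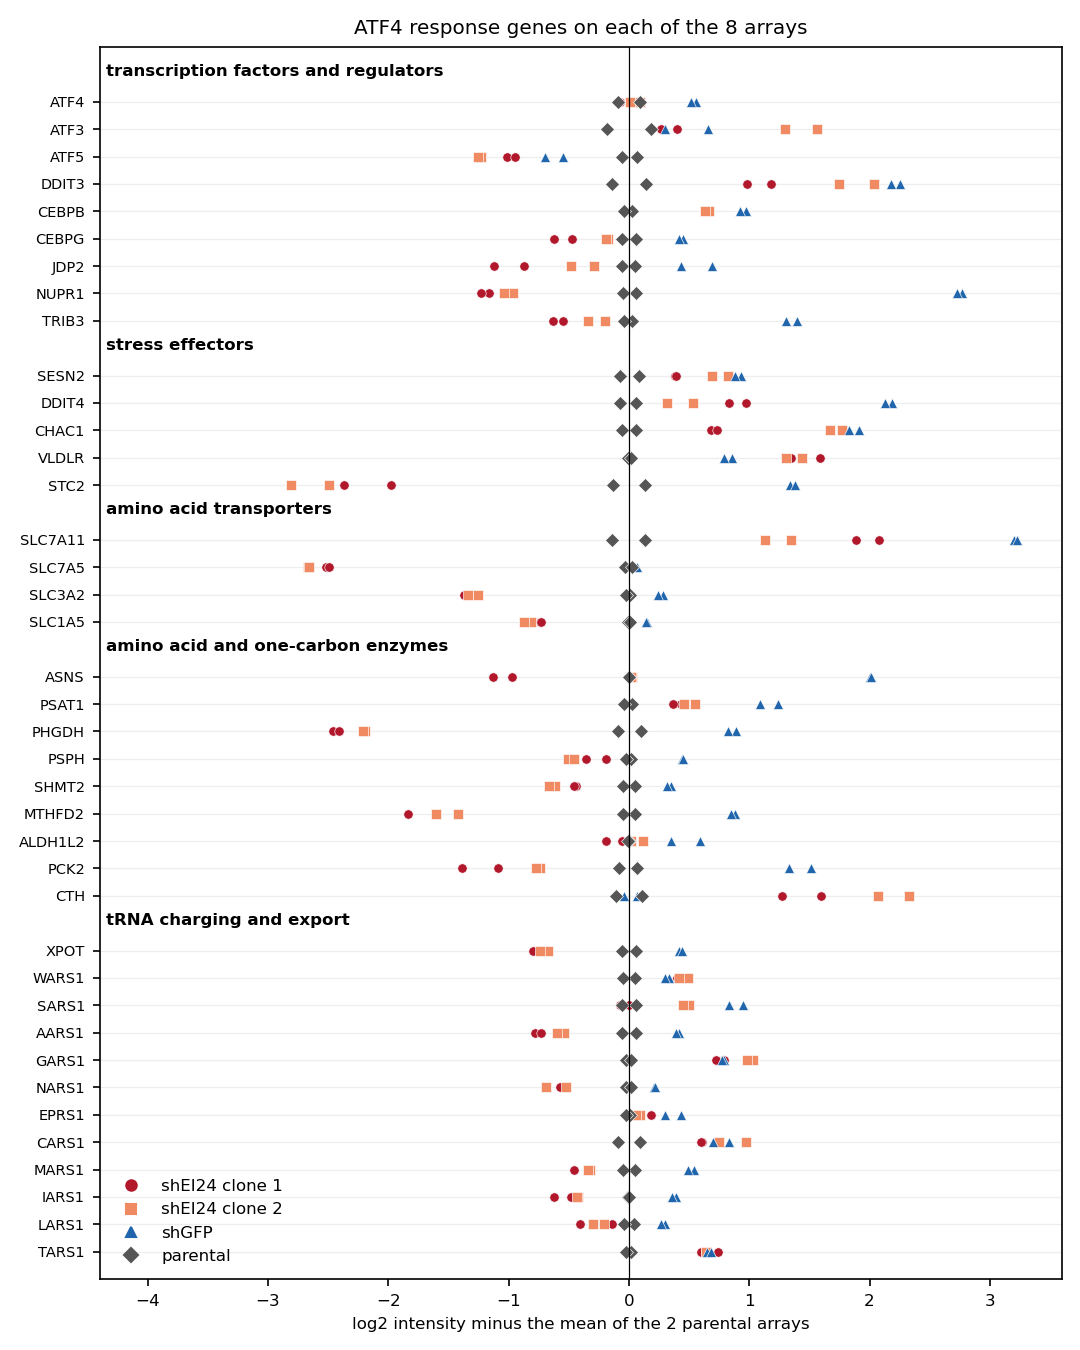
Log2 intensity of each of the 39 ATF4 response genes on every array, minus the mean of the 2 parental arrays, grouped by role; circles are shEI24 clone 1, squares shEI24 clone 2, triangles shGFP and diamonds parental cells. The shGFP triangles stand right of the parental diamonds for most members, with SLC7A11, NUPR1 and DDIT3 the farthest.

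Among the transcription factors and regulators, 8 of 9 were lower in the clones than in shGFP cells and 1 was higher, while against parental cells 5 were lower, 3 higher and 1 did not pass. ATF4, the factor that gives the response its name, measured 10.19 and 10.09 in clone 1 and 10.25 and 10.17 in clone 2, against 10.72 and 10.68 in shGFP cells and 10.25 and 10.07 in parental cells. The clones overlapped with parental cells and lay below both shGFP arrays. The difference was -0.53 ± 0.08 from shGFP and 0.01 ± 0.08 from parental cells. ATF4 has a second transcript cluster. With both averaged, the difference from shGFP shrank to -0.36 and that from parental cells was -0.00.

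DDIT3, which encodes CHOP, a C/EBP family factor tied to cell death under prolonged stress, measured 8.85 and 8.65 in clone 1 and 9.71 and 9.42 in clone 2, against 9.92 and 9.85 in shGFP cells and 7.81 and 7.53 in parental cells. The clones stood between the controls, and clone 2 stood nearer to shGFP. DDIT3 was 1.66-fold lower than in shGFP cells (-0.73 ± 0.12) and 2.8-fold higher than in parental cells (1.48 ± 0.12). CEBPB, a C/EBP partner of ATF4, measured 10.52 and 10.52 in clone 1 and 10.55 and 10.51 in clone 2, against 10.85 and 10.80 in shGFP cells and 9.91 and 9.84 in parental cells. The 4 clone arrays were nearly level with each other and lay between the controls.

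NUPR1, a small stress-induced chromatin protein, measured 7.53 and 7.46 in clone 1 and 7.73 and 7.65 in clone 2, against 11.46 and 11.42 in shGFP cells and 8.75 and 8.64 in parental cells. All clone arrays lay below all control arrays, and the controls were themselves far apart. NUPR1 was 14.4-fold lower than in shGFP cells (-3.85 ± 0.08) and 2.15-fold lower than in parental cells (-1.10 ± 0.08). TRIB3, a pseudokinase that restrains ATF4, measured 8.58 and 8.50 in clone 1 and 8.93 and 8.79 in clone 2, against 10.53 and 10.44 in shGFP cells and 9.16 and 9.09 in parental cells. Here too the clone arrays lay below both controls, with differences of -1.79 ± 0.08 from shGFP and -0.43 ± 0.08 from parental cells.

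The other 4 in this group differed from parental cells by between -1.11 (ATF5) and 0.88 (ATF3), with JDP2 at -0.69 and CEBPG at -0.36. ATF5, a relative of ATF4, was the only member lower in shGFP than in parental cells (-0.62 ± 0.09). ATF3 passed as higher against both controls, although its arrays overlapped, since clone 1 measured 7.03 and 6.90 and clone 2 measured 8.19 and 7.93, against 7.29 and 6.93 in shGFP cells and 6.45 and 6.81 in parental cells.

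Among the stress effectors, 4 of 5 were lower in the mean of both clones than in shGFP cells and 4 of 5 were higher than in parental cells. Clone 2 alone had 2 lower and 1 higher than shGFP, and 2 that did not pass (median -0.15). SESN2, a leucine sensor that restrains mTORC1, measured 8.26 and 8.27 in clone 1 and 8.70 and 8.57 in clone 2, against 8.81 and 8.76 in shGFP cells and 7.96 and 7.81 in parental cells. DDIT4, another inhibitor of mTORC1, measured 9.92 and 9.78 in clone 1 and 9.48 and 9.27 in clone 2, against 11.14 and 11.08 in shGFP cells and 9.01 and 8.88 in parental cells. CHAC1 measured 8.15 and 8.20 in clone 1 and 9.14 and 9.24 in clone 2, against 9.30 and 9.38 in shGFP cells and 7.41 and 7.53 in parental cells. For all 3 the clones lay between the controls without overlap, and CHAC1 in clone 2 came close to shGFP. The differences from parental cells were 0.57 ± 0.08 for SESN2, 0.67 ± 0.09 for DDIT4 and 1.21 ± 0.08 for CHAC1.

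STC2, a secreted glycoprotein, was the stress effector that went lower than both controls. It measured 6.35 and 6.74 in clone 1 and 5.91 and 6.23 in clone 2, against 10.06 and 10.10 in shGFP cells and 8.85 and 8.59 in parental cells, which is 13.7-fold lower than shGFP (-3.77 ± 0.14) and 5.32-fold lower than parental cells (-2.41 ± 0.14). VLDLR, a lipoprotein receptor, went the other way, by 0.60 ± 0.09 from shGFP and 1.42 ± 0.09 from parental cells, with every clone array above every control array.

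**Figure D3:**
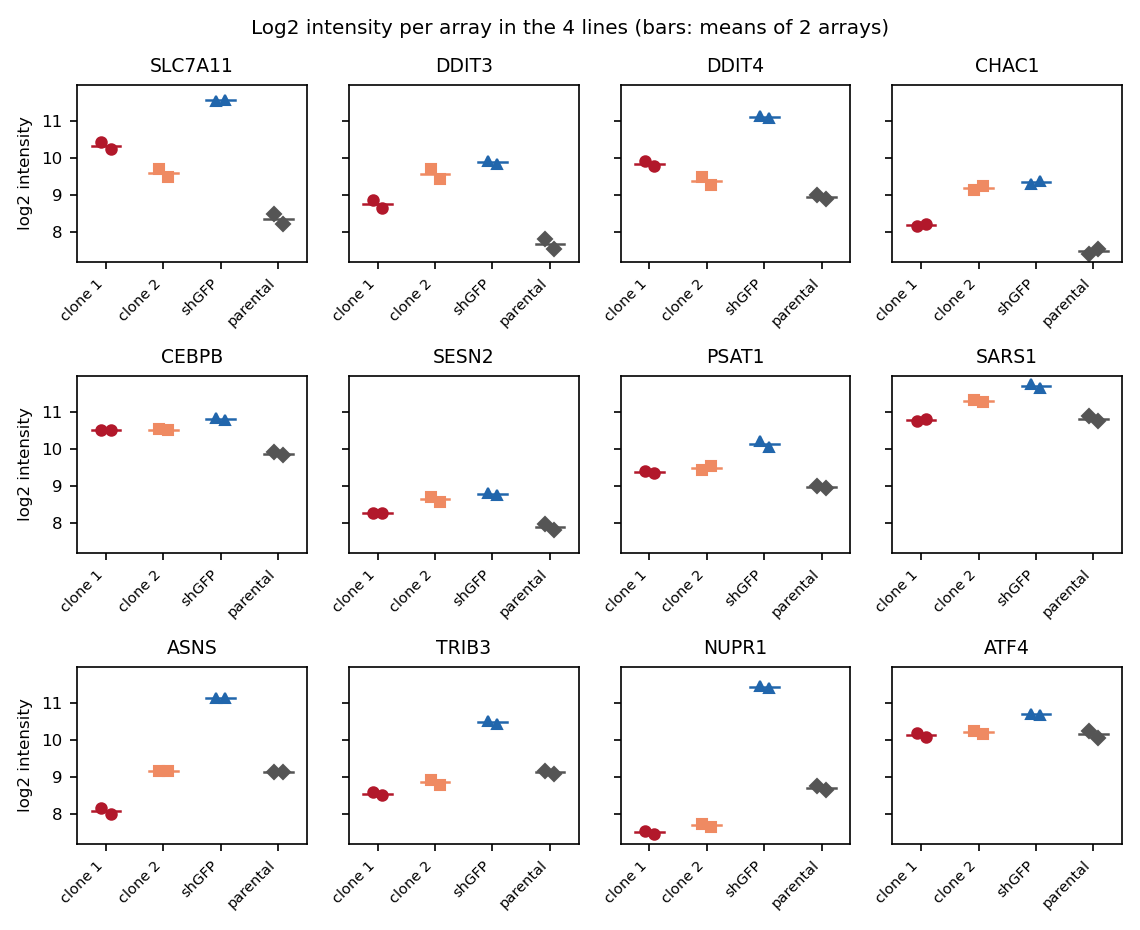
Log2 intensity of 12 ATF4 response genes on each array (points) and the mean of 2 arrays (bars) in the 4 lines, from shEI24 clone 1 on the left to parental cells on the right. The 8 genes of the upper and middle rows have clone means below shGFP and above or level with parental cells, whereas TRIB3 and NUPR1 in the bottom row have clone means below both.

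The amino acid transporters separated into the cystine carrier and the rest. SLC7A11, the cystine-glutamate exchanger, measured 10.43 and 10.24 in clone 1 and 9.70 and 9.48 in clone 2, against 11.55 and 11.58 in shGFP cells and 8.48 and 8.21 in parental cells. The mean of both clones lay midway between the controls, 3.04-fold lower than shGFP (-1.61 ± 0.11) and 3.06-fold higher than parental cells (1.61 ± 0.11). Clone 1 stood nearer to shGFP and clone 2 nearer to parental cells. SLC7A5, the light chain of the leucine transporter LAT1, measured 10.36 and 10.39 in clone 1 and 10.21 and 10.22 in clone 2, against 12.93 and 12.95 in shGFP cells and 12.85 and 12.91 in parental cells. Here the controls were level (0.06 ± 0.08 between them), and the clones were 6.26-fold lower than shGFP and 6-fold lower than parental cells.

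SLC3A2, the heavy chain shared by LAT1 and the cystine exchanger, measured 10.79 and 10.77 in clone 1 and 10.89 and 10.80 in clone 2, against 12.42 and 12.38 in shGFP cells and 12.15 and 12.12 in parental cells. It lay below both controls on every array, with differences of -1.59 ± 0.07 from shGFP and -1.32 ± 0.07 from parental cells. SLC1A5, a glutamine carrier, was lower by smaller steps (-0.93 ± 0.07 from shGFP and -0.78 ± 0.07 from parental cells). Between shGFP and parental cells SLC7A11 passed (3.22 ± 0.12) and the others did not, although SLC3A2 (0.26 ± 0.08) passed in some other settings, among them a second quantile normalization (0.32).

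Of the enzymes, 8 of 9 were lower in the clones than in shGFP cells, and against parental cells 6 were lower, 2 higher and 1 did not pass. ASNS measured 8.16 and 8.00 in clone 1 and 9.16 and 9.15 in clone 2, against 11.13 and 11.14 in shGFP cells and 9.13 and 9.13 in parental cells. Clone 1 lay below parental cells and clone 2 was level with them, and both lay far below shGFP. The pooled differences were -2.52 ± 0.08 from shGFP and -0.51 ± 0.08 from parental cells.

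PHGDH, PSAT1 and PSPH catalyse the successive steps of serine synthesis, and they did not move alike. PHGDH measured 8.85 and 8.90 in clone 1 and 9.12 and 9.10 in clone 2, against 12.20 and 12.13 in shGFP cells and 11.41 and 11.22 in parental cells. PSAT1 measured 9.41 and 9.35 in clone 1 and 9.44 and 9.53 in clone 2, against 10.22 and 10.07 in shGFP cells and 9.01 and 8.94 in parental cells. PHGDH lay below both controls, 9.03-fold lower than shGFP and 5-fold lower than parental cells, while PSAT1 lay between them (-0.71 ± 0.08 from shGFP and 0.46 ± 0.08 from parental cells). PSPH was lower than both by less (-0.83 ± 0.08 from shGFP and -0.38 ± 0.08 from parental cells).

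MTHFD2, the mitochondrial folate dehydrogenase, measured 9.96 and 9.72 in clone 1 and 10.14 and 9.96 in clone 2, against 12.44 and 12.41 in shGFP cells and 11.61 and 11.51 in parental cells. It lay below both, with differences of -2.48 ± 0.09 from shGFP and -1.61 ± 0.09 from parental cells. SHMT2, which supplies MTHFD2 with folate-bound carbon, was lower, with differences of -0.88 ± 0.07 from shGFP and -0.54 ± 0.07 from parental cells, and PCK2, the mitochondrial PEP carboxykinase, was 5.34-fold lower than in shGFP and 1.99-fold lower than in parental cells. ALDH1L2, another mitochondrial folate enzyme, was lower than shGFP (-0.50 ± 0.09) and differed from parental cells by -0.03 ± 0.09.

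CTH, which makes cysteine from cystathionine, was the enzyme that rose against both controls. It measured 8.67 and 8.34 in clone 1 and 9.40 and 9.14 in clone 2, against 7.14 and 7.03 in shGFP cells and 7.18 and 6.96 in parental cells. All clone arrays lay above all control arrays and the controls overlapped, with the clones 3.49-fold higher than shGFP and 3.53-fold higher than parental cells.

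Of the 12 genes of tRNA charging and export, 8 were lower in the clones than in shGFP cells and 4 did not pass (WARS1, GARS1, CARS1 and TARS1). Against parental cells 6 were lower, 5 higher and 1 did not pass. SARS1, the seryl-tRNA synthetase, measured 10.76 and 10.83 in clone 1 and 11.33 and 11.28 in clone 2, against 11.78 and 11.66 in shGFP cells and 10.89 and 10.77 in parental cells. Clone 1 overlapped with parental cells, and clone 2 lay between the controls, so the pooled difference from parental cells was small (0.22 ± 0.08). It did not pass when any array other than clone 1 replicate 1 was left out (limma adjusted p = 0.059 to 0.22, the highest without parental replicate 2).

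XPOT, which exports tRNAs from the nucleus, was lower, with differences of -1.16 ± 0.08 from shGFP and -0.73 ± 0.08 from parental cells. AARS1, NARS1, MARS1, IARS1 and LARS1 were also lower than both controls, with differences between -1.07 and -0.55 from shGFP and between -0.66 and -0.27 from parental cells. GARS1, CARS1, TARS1 and WARS1 were higher than parental cells by between 0.45 and 0.88 and differed from shGFP by between -0.03 and 0.13. EPRS1 was lower than shGFP (-0.29 ± 0.08) and differed from parental cells by 0.08 ± 0.08. Across the 14 members with the TGATGNAA core the median difference of the clones was -0.83 from shGFP and -0.42 from parental cells, and across the 19 whose windows lacked it, -0.71 from shGFP and 0.08 from parental cells. Between shGFP and parental cells these medians were 0.50 with the core and 0.86 without, and no difference between the sets was tested.

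The clones were not alike within the response. Clone 1 was lower than clone 2 for 11 members and higher for 2, where 5.88% of all genes were lower and 9.29% higher (15.2% in all), and 26 members did not pass. ATF3 (-1.09 ± 0.16), ASNS (-1.07 ± 0.09), CHAC1 (-1.02 ± 0.09) and DDIT3 (-0.81 ± 0.14) were lower in clone 1, and SLC7A11 (0.75 ± 0.12) and DDIT4 (0.48 ± 0.10) were higher. EI24 was lower in clone 1 too (-0.68 ± 0.10). With any 1 clone array left out, fewer members passed between the clones, and fewer of all genes did too. The median member then differed by between -0.15 and -0.06 (-0.10 with all arrays). Set against each control alone, clone 1 had 32 members lower and 2 higher than shGFP (26.6% and 23% of all genes, 49.6% in all) and 20 lower and 13 higher than parental cells (28.6% and 21.3%, 49.9% in all). Clone 2 had 29 lower and 4 higher than shGFP (27.8% and 25.2%, 53% in all) and 18 lower and 15 higher than parental cells (29.2% and 23.9%, 53% in all).

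**Figure D4:**
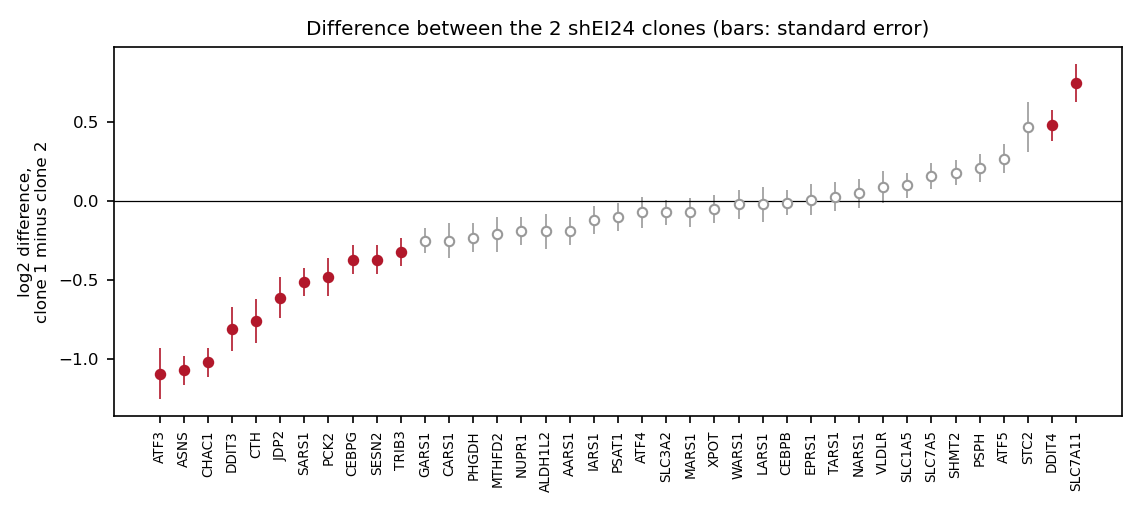
Log2 difference of shEI24 clone 1 from shEI24 clone 2 for the 39 ATF4 response genes, ordered by size, with the standard error from limma as bars; filled points passed an adjusted p under 0.05 over all genes. The lowest point is ATF3 at -1.09 and the highest is SLC7A11 at 0.75.

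The machinery upstream of ATF4 and the neighbouring pathways were read from lists outside the 39 members. Of 19 genes for eIF2, eIF2B, the eIF2 kinases and phosphatases and their regulators, 1 passed between shGFP and parental cells (GCN1, lower), where 10.7% of all genes did. Against shGFP cells 6 of them rose and 9 fell in the clones, where 26.8% and 29% of all genes did. Against parental cells 3 rose and 10 fell, where 25.1% and 30.8% of all genes did. PPP1R15A (GADD34), which directs the dephosphorylation of eIF2 and is itself an ATF4 target, measured 10.38 and 10.30 in clone 1 and 11.15 and 10.99 in clone 2, against 8.11 and 8.14 in shGFP cells and 8.19 and 8.11 in parental cells. It stood apart from both controls, which were level with each other, by 2.58 ± 0.08 from shGFP (limma adjusted p = 1.7e-08) and 2.56 ± 0.08 from parental cells (limma adjusted p = 2.1e-08). EIF2AK4 (GCN2), the kinase that senses uncharged tRNA, was higher than parental cells by 0.73 ± 0.07, and IMPACT, an inhibitor of GCN2, was lower, with a difference of -1.46 ± 0.11. OMA1, the mitochondrial protease that signals to eIF2, was lower, with a difference of -0.94 ± 0.10.

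Among 18 further ATF4 targets, 10 were higher in shGFP than in parental cells and none was lower, with a median of 0.46. Of all genes, 3.21% were higher and 7.44% lower. Against shGFP cells 7 of the 18 rose and 8 fell in the clones, where 26.8% and 29% of all genes did. Against parental cells 9 rose and 6 fell, where 25.1% and 30.8% did. BCAT1, a branched-chain aminotransferase, was 15.4-fold higher in the clones than in parental cells, and PMAIP1 (NOXA), a cell death protein, was 20.2-fold higher. GDF15, a stress cytokine, was lower than both, with differences of -1.92 ± 0.09 from shGFP and -0.99 ± 0.09 from parental cells. LONP1, a mitochondrial protease, was lower, with differences of -1.02 ± 0.10 from shGFP and -0.79 ± 0.10 from parental cells.

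Synthetases outside the member list gave other counts. Of 9 other genes of cytosolic tRNA charging, 1 was higher and 3 lower in shGFP than in parental cells (median -0.01). Of all genes, 3.21% were higher and 7.44% lower there. In the clones 2 of the 9 rose and 2 fell against shGFP, where 26.8% and 29% of all genes did. Of 16 mitochondrial synthetases, none was higher in the clones in either comparison, and 11 were lower than in shGFP (29% of all genes were) and 14 than in parental cells (30.8% of all genes were). MARS2 was lower, with differences of -1.30 ± 0.11 from shGFP and -1.43 ± 0.11 from parental cells, and TARS2 had differences of -1.28 ± 0.10 from shGFP and -1.43 ± 0.10 from parental cells. FARSB was the only cytosolic gene of the list lower than both (-0.58 ± 0.08 from shGFP and -0.48 ± 0.08 from parental cells).

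Other folate, transport and stress genes moved in both directions. Of 12 other folate and glycine enzymes, 4 fell and 3 rose against shGFP, and 6 fell and 4 rose against parental cells, where 55.9% of all genes passed in each comparison. SHMT1 and MTHFD1, cytosolic enzymes of one-carbon metabolism, were lower than parental cells, with differences of -1.40 ± 0.10 and -1.20 ± 0.08, while MTR, the methionine synthase, was higher by 0.46 ± 0.08 and ALDH1L1 by 0.45 ± 0.11. Of 18 other amino acid transporters, 9 rose and 6 fell against shGFP, where 26.8% and 29% of all genes did. Against parental cells 11 rose and 6 fell, where 25.1% and 30.8% did. SLC1A1, a glutamate carrier, and SLC36A4 were 2.82-fold and 2.77-fold higher than in parental cells, and SLC7A2, a cationic amino acid carrier, and SLC43A2 were lower, with differences of -1.64 ± 0.07 and -1.69 ± 0.12.

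The ATF6 and XBP1 branch of the endoplasmic reticulum stress response raises chaperones. Of its 17 genes, 12 were higher and 1 lower in the clones than in shGFP cells, where 26.8% and 29% of all genes were. Against parental cells 11 were higher and 3 lower, where 25.1% and 30.8% of all genes were. The clones differed here. Clone 1 alone had 14 higher and 1 lower than parental cells (21.3% and 28.6% of all genes). Clone 2 had 7 higher and 3 lower (23.9% and 29.2%). Between the clones 47.1% of the list passed, where 15.2% of all genes did. HSPA5, the chaperone BiP, was higher by 1.34 ± 0.08 than in shGFP and 0.93 ± 0.08 than in parental cells, and its cochaperone DNAJC3 by 1.05 ± 0.11 and 0.77 ± 0.11. DNAJC3 averaged 9.91 in clone 1 and 9.05 in clone 2, against 8.71 in parental cells. XBP1 itself was lower, with differences of -1.70 ± 0.08 from shGFP and -1.11 ± 0.08 from parental cells. NRF2 targets, genes of the antioxidant response, had 5 of 14 higher and 4 lower than in shGFP cells, and none higher and 6 lower than in parental cells. In all, 64.3% and 42.9% of them passed, where 55.9% of all genes did in each comparison. GCLC, which catalyses the first step of glutathione synthesis, was lower, with differences of -1.43 ± 0.11 from shGFP and -1.39 ± 0.11 from parental cells, and PGD, of the pentose phosphate pathway, differed by -0.92 ± 0.08 from shGFP and -1.14 ± 0.08 from parental cells.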

How the data were processed

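RNA of 8 samples was hybridised to Affymetrix arrays. The authors deposited log2 values, processed with GCOS and RMA per the labels, for 33297 transcript clusters. The study's methods name an exon array, but the cluster identifiers matched the annotation of a gene-level array, which was used for symbols. In it 19460 clusters had 1 symbol, 1754 several and 12083 none, and keeping 1 cluster per gene left 18417 genes. Those with no single symbol were not used here. A mean for each of the 4 lines was fitted by lmFit and eBayes (limma 3.58.1, R 4.3.3), which left 4 residual degrees of freedom, and the Benjamini-Hochberg adjustment ran over all 18417 genes. The fit was tested on simulated data. No floor or filter on dim genes was applied. Precision is limited by having 2 arrays a line.

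The members and lists were chosen with earlier results of these data known. Genes with array values were EI24, ATF4, ASNS, TRIB3, DDIT3, members passing against both controls in opposite directions, and members passing in 1 direction with a log2 difference of at least 1 from each; ATF3 was added after its values were seen. Of each other list, up to 2 highest and 2 lowest were named by the smaller of their differences; GCN1, CD68, CD14 and PTPRC were added after their values were seen. Alternatives covered the control, the arrays fitted, scaling, variance, dim genes, cluster choice, a 2-fold threshold (treat), the methods' t-test and leaving out arrays. Some genes of the neighbouring lists are not reported here.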

Additional observations from a re-analysis of the deposited data

Results flagged for a closer look

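Between the clones, 13 members passed the test of the difference itself (clone 1 minus clone 2, which is also the difference of their effects against either control). Those lower in clone 1 were ATF3 (-1.09), ASNS (-1.07), CHAC1 (-1.02), DDIT3 (-0.81), CTH (-0.76), JDP2 (-0.61), SARS1 (-0.51), PCK2 (-0.48), SESN2 (-0.37), CEBPG (-0.37) and TRIB3 (-0.32), and those higher in clone 1 were SLC7A11 (0.75) and DDIT4 (0.48), all as log2 differences. Adjusted p-values in limma ran between 1.8e-04 for ASNS and 0.047 for TRIB3. With 2 arrays a line, no line was large enough to be searched for an array that stood apart.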

How the results depend on the processing

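The counts of members kept their size, within 1.5 times, in most settings. Against shGFP, 35 of 39 members passed, where 55.9% of all genes did. With each line counted once and the controls pooled, 12 of 39 passed, where 33.5% of all genes did. STC2, SLC7A5, SLC3A2, PHGDH, MTHFD2 and CTH were among those 12, while NUPR1, TRIB3, ASNS and ATF4 did not pass (limma adjusted p = 0.1 to 0.36). Testing for more than a 2-fold change (treat) also gave 12, where 11.2% of all genes passed. With shGFP and parental cells pooled as the control 35 passed (62.1% of all genes did), but as 10 higher and 25 lower. Under that pooling DDIT3 stood at 0.38, CEBPB at 0.17, SESN2 at 0.12, CHAC1 at 0.28 and SLC7A11 at 0.00, none of them lower any more, and SESN2 and SLC7A11 did not pass. Treat gave 9 members for the clones against parental cells (11.1% of all genes). For clone 1 and clone 2 it gave 10 and 12 against shGFP (10.4% and 11.4%). Against parental cells it gave 7 and 9 (9.99% and 11.4%). Between the clones it gave 0, and limma without the fold threshold gave 13 (0.239% and 15.2% of all genes). For shGFP against parental cells it gave 6 (0.141%). The methods' t-test after Benjamini-Hochberg adjustment gave 17 and 21 for clone 1 and clone 2 against parental cells (19.5% and 26.5% of all genes). Between the clones it gave 0, or 14 unadjusted (0.0217% and 16.3% of all genes). For shGFP against parental cells it gave 1, or 34 unadjusted (0.0597% and 22.5%). Only the arrays of the clones gave 8 between them (7.91% of all genes). Leaving out arrays gave 7 to 12 members between the clones and 19 to 32 for shGFP against parental cells, in either direction. Between the clones, fewer of all genes passed too, whichever array was left out. For shGFP against parental cells, fewer of all genes passed too when an array of either control was left out. Whether the loss was particular to the members was not tested. ATF4 against parental cells was 0.01 and changed sign without passing (-0.00 with arrays centred or clusters averaged, -0.01 without clone 1 replicate 1 or clone 2 replicate 1, and -0.08 to 0.10 over all arrays left out, the lowest without parental replicate 2), as did CTH between the controls (-0.04 without shGFP replicate 1, and -0.10 to 0.13 over all arrays left out, the lowest without parental replicate 2). The cause was not tested.

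Same-numbered arrays deviated together (correlations of 0.25 to 0.59 between lines), but each line has only 2 numbers and no label ties them to a shared batch, so the arrays were not taken as paired. With the replicate block 35 members passed against shGFP and 36 against parental cells (65.4% and 65.7% of all genes). That fit gave 15 between the clones and 34 for shGFP against parental cells (22.7% and 18.7%).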
